A study of Schizosaccharomyces pombe with 4 samples.

Results

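Transcript levels in fission yeast carrying sim3-205 were set against those in cells carrying sim3-143, another mutant allele of the same gene. All 4 arrays of the series were used, 2 for sim3-205 and 2 for sim3-143. On each array total RNA from logarithmically growing mutant cells was hybridized together with RNA from wild-type (wt) controls to a spotted S. pombe ORF array, 1 labelled with Cy3 and the other with Cy5. The mutant carried Cy3 in both arrays numbered replicate 1 and Cy5 in both arrays numbered replicate 2. Replicate 2 of sim3-205 was hybridized to a slide with the code E020F and the other 3 arrays to slides with the code A170F. It was also deposited under a different array platform from the other 3. With the mutant in Cy5, allele and platform therefore cannot be told apart. The growth temperature, the genotypes of the strains beyond sim3, and whether arrays shared cultures, RNA extracts or wild-type RNA are not given in the sources used here, so n = 2 counts arrays and p-values measure only the spread between them, which may be technical.

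sim3 (SPBC577.15c) encodes a histone chaperone of the NASP family, which in vertebrates and yeasts binds free histones H3 and H4. In fission yeast, Sim3 escorts Cnp1, the CENP-A variant of histone H3 that marks centromeres. Both alleles are missense mutations in the TPR-like repeats of the protein and were isolated because they relieve silencing in the central core of the centromere. Whether alleles of 1 chaperone gene differ in the transcripts they affect is what the comparison measures.

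Values are log2 ratios of mutant over wild-type. A difference between the alleles is the sim3-205 ratio minus the sim3-143 ratio, taken within 1 dye orientation, that is replicate 1 against replicate 1 (mutant in Cy3) and replicate 2 against replicate 2 (mutant in Cy5). Because each ratio is relative to the wild-type on the same array, a difference of 1 means that the mutant-to-wild-type ratio was doubled in sim3-205 relative to sim3-143. Of 4868 gene names on the array, 4395 had a value in both orientations. Of the remaining 473, 436 lay in 3 of the 32 printed grids (21, 25 and 29) that were left out, because Cy3 and Cy5 there had Spearman correlations of 0.241, 0.156 and -0.190 on sim3-205 replicate 1. The lowest correlation in any other grid and array was 0.794. In these 3 grids the Cy5 readings of sim3-205 replicate 1, its wild-type channel, had Spearman correlations of 0.294, 0.157 and -0.182 with those of sim3-143 replicate 1. The Cy3 readings correlated at 0.819, 0.939 and 0.957.

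The sim3-205 arrays resembled each other little, and the sim3-143 arrays more. Across the 4395 genes, which are not independent replicates, the log2 ratios of the sim3-205 arrays had a Pearson correlation of 0.15, and those of the sim3-143 arrays 0.47. The highest correlation of any pair was 0.59, between sim3-205 replicate 2 and sim3-143 replicate 2, which share a dye orientation but not an allele. sim3-205 replicate 1 correlated at -0.03 with each of the sim3-143 arrays. It was also the array with 73 spots of Cy3 intensity 0, against 0 on each of the others.

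At an adjusted p below 0.05 (limma, a linear model for arrays, with dye orientation as a block, Benjamini-Hochberg adjustment over all 4395 genes), 0 genes differed between sim3-205 and sim3-143 (0.0% of those tested). The smallest adjusted p was 0.441, and 474 genes had an unadjusted p below 0.05, against 220 for that share of the genes tested. The fit has 1 residual degree of freedom, and the median half-width of the unadjusted 95% interval of a gene's difference was 0.52. Differences well above that did not pass the adjusted test either. With an array left out the dye block cannot be kept, so allele alone was fitted, which with all 4 arrays called 0 genes. Without sim3-205 replicate 1 this fit called 11 genes (1 higher and 10 lower in sim3-205), and without sim3-205 replicate 2, which leaves the arrays with the slide code A170F, it called 98 (31 higher and 67 lower). Leaving out a sim3-143 array, whichever of them, gave 0 calls. The lone array of an allele is assumed in these fits to vary like the arrays of the other.

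Genes were therefore described by a rule of size, a difference past 1.5-fold in 1 direction in both dye orientations, which gives no p-value. By this rule 63 genes were higher in sim3-205 (1.43% of those tested) and 77 were lower (1.75%), 140 in all (3.19%), and 16 were past 1.5-fold in opposite directions in the 2 orientations. Past 2-fold in both orientations there were 6 higher genes (0.137%) and 10 lower genes (0.228%). In 1 orientation alone the numbers were much larger, with 503 higher and 465 lower with the mutant in Cy3, and 246 higher and 253 lower with the mutant in Cy5. Across genes, the differences of the 2 orientations were correlated at 0.28 (Pearson) and 0.30 (Spearman). The authors' deposited log2 ratios of sim3-143 replicate 2 and sim3-205 replicate 1 were placed by the names written on those arrays, as described under processing. The deposited ratios cover 1451 of these genes in both orientations, and among them the rule found 7 higher and 57 lower genes. The median difference of all genes was -0.10 there, and once each orientation was centred on its median the rule found 26 higher and 29 lower. Just inside the cutoff of 0.585 on the log2 scale lay SPAC16.05c (sfp1), at 1.69 with the mutant in Cy3 and 0.585 with the mutant in Cy5. Just outside it lay SPBC3F6.04c (nop14), at -0.58 and -0.61. It lies in grid 9, described next, and with a loess curve for each grid its mean difference was -1.22 and it met the rule.

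**Figure D1:**
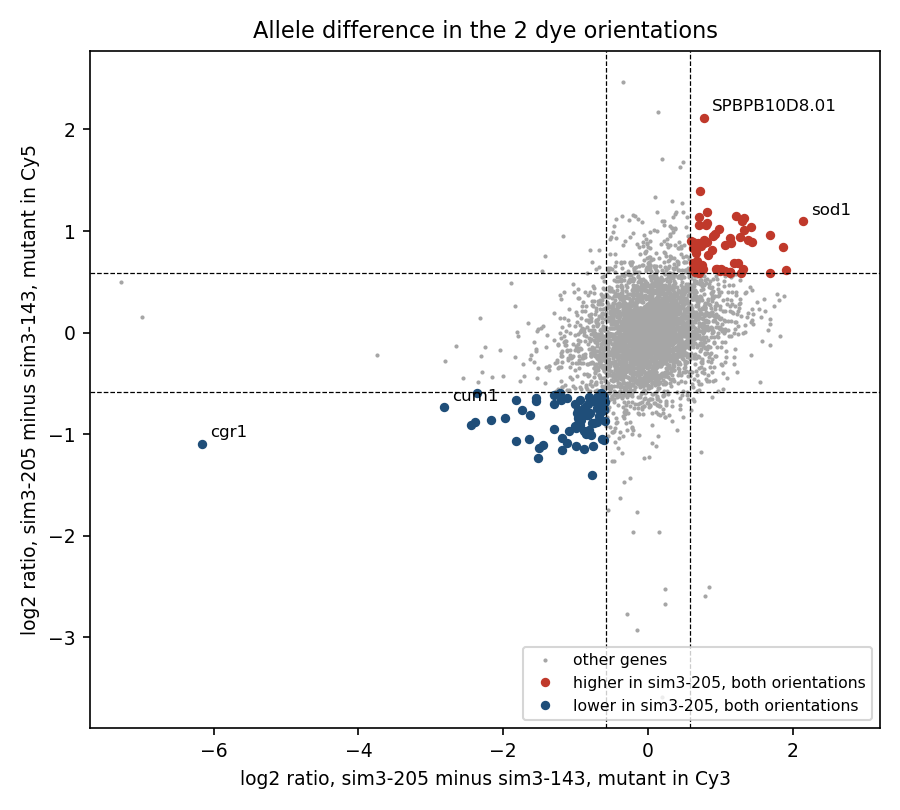
Difference in log2 ratio (mutant over wild-type) of sim3-205 minus sim3-143 for 4395 genes, with the mutant in Cy3 on the x axis and in Cy5 on the y axis. Dashed lines mark 1.5-fold. The 63 red genes are past it upward in both orientations and the 77 blue genes downward, and most genes past a line on 1 axis are not past it on the other.

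The genes higher in sim3-205 were gathered at certain places on the slide. Of the 63, 15 lay in grid 9 and 13 in grid 13, which hold 148 and 152 of the genes tested, and 0 of the 77 lower genes lay in either. The median difference of all genes in grid 9 was 0.36 with the mutant in Cy3 and 0.24 with the mutant in Cy5, and in grid 13 it was 0.18 and 0.52. The shifts stood mainly on 1 array of each allele. The median log2 ratio in grid 9 was 0.285 on sim3-205 replicate 1 and -0.30 on sim3-143 replicate 2, and that in grid 13 was 0.21 on sim3-205 replicate 1 and -0.54 on sim3-143 replicate 2. With all 32 grids kept, the rule found 145 higher and 87 lower genes. With a loess curve for each grid (print-tip loess) in place of 1 per spot file, 42 genes were higher (0.956%) and 61 lower (1.39%), and 22 of the 63 and 43 of the 77 were past 1.5-fold under both. The value with print-tip loess is given beside genes of these grids. Where it falls below 1.5-fold in an orientation, the gene is said to have missed the rule under print-tip loess.

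**Figure D2:**
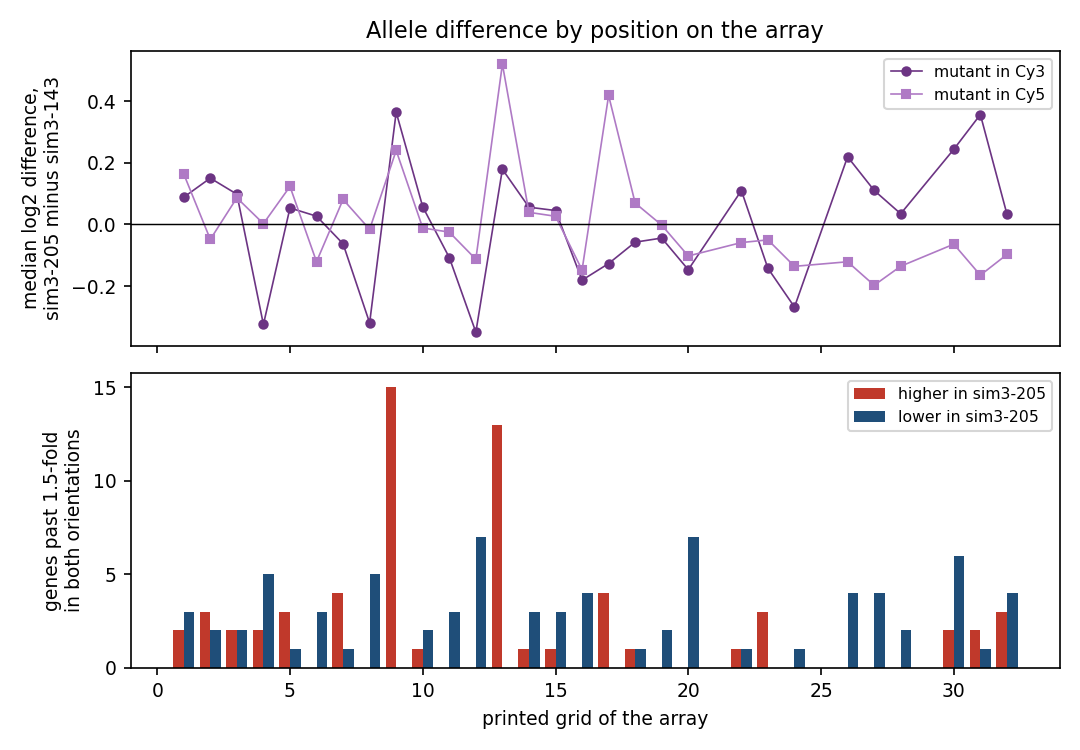
Above, the median difference of the genes in each printed grid (sim3-205 minus sim3-143, log2 scale) with the mutant in Cy3 and in Cy5. Below, the number of genes past 1.5-fold in both orientations in each grid, where grids 9 and 13 hold 15 and 13 of the 63 genes higher in sim3-205.

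For the mutated gene itself the alleles overlapped. sim3 was at 0.01 and -0.26 in sim3-205 and at 0.24 and -0.06 in sim3-143. The difference was -0.22 (95% interval -0.71 to 0.28, adjusted p = 0.693 from limma). Both alleles are missense, so the probe does not check the labels. cnp1, the CENP-A gene, stood at -0.07 and 0.08 in sim3-205 and at -0.10 and 0.29 in sim3-143, with a difference of -0.10 (interval -0.60 to 0.41, adjusted p = 0.874 from limma). SPAC1F8.04c (hhy1) was above wild-type on all 4 arrays, at 1.11 and 0.62 in sim3-205 and at 0.51 and 1.39 in sim3-143. Its allele difference was 0.60 with the mutant in Cy3 and -0.77 with the mutant in Cy5, so the orientations disagreed on which allele was higher.

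Among 18 tested genes of CENP-A and its loading factors, 0 were past 1.5-fold in both orientations in either direction, beside 1.43% higher and 1.75% lower of all genes, with a median difference of -0.10 against 0.00 over all genes. The lowest was mis12, a kinetochore subunit, at -0.41 and 1.05 in sim3-205 and 0.54 and 1.27 in sim3-143 (difference -0.59, interval -1.22 to 0.04). The highest was cnp3, which encodes the CENP-C protein, at 0.32 and -0.36 in sim3-205 and -0.23 and -0.44 in sim3-143 (difference 0.31, interval -0.24 to 0.87). The CENP-A chaperone gene scm3 differed by 0.12, mis16 by 0.30 and mis18, which acts with Mis16 in CENP-A loading, by -0.32. Of 13 genes for other histone chaperones 0 were past the rule, beside the same shares of all genes. The lowest of them was spt16 (SPBP8B7.19), a subunit of the FACT complex, which was at -0.62 and -0.37 in sim3-205 and at 0.39 and 0.00 in sim3-143.

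Histones H3 and H4 are the proteins that chaperones of this family bind. The 9 tested genes for core histones and H2A.Z had a median difference of 0.54 with the mutant in Cy3 and of 0.08 with the mutant in Cy5. Of them 0 were past the rule, beside 3.19% of all genes. The widest gap was that of hhf2, an H4 gene, at 1.54 and 0.10 in sim3-205 and -0.15 and 0.01 in sim3-143. The other H4 genes differed by 0.52 (hhf1) and 0.39 (hhf3), the H3 genes by 0.33 (hht2) and 0.21 (hht3), and pht1, which encodes H2A.Z, by 0.51. The tested genes for H2A and H2B lay between -0.02 and 0.05. Histone genes of a kind share sequence, so their probes may not be separate measurements. For the H4 genes, hht2 and pht1 the higher sim3-205 value stood on replicate 1. For hht3 it stood on replicate 2, at 0.60 against 0.27.

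The 12 greatest differences upward in sim3-205 included sod1, genes of the cell wall and of transport, purine genes and SPBPB10D8 loci. sod1, which encodes the copper-zinc superoxide dismutase, was at 1.62 and 0.83 in sim3-205 and at -0.52 and -0.28 in sim3-143. It was above wild-type in sim3-205 and below it in sim3-143 on every array, and the difference was 1.62 (interval 0.87 to 2.37, which like all intervals here is not adjusted for the number of genes). It was a bright spot, with mutant intensities between 24334 and 44605 in sim3-205 and between 13243 and 15778 in sim3-143. sod1 lies in grid 9, and under print-tip loess its difference was 0.75 and it missed the rule.

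Genes of the cell wall and the membrane system followed. rtn1 (printed as cwl1), a reticulon that shapes the endoplasmic reticulum, was at 1.15 and 0.35 in sim3-205 and at -0.72 and -0.49 in sim3-143 (difference 1.36, interval 0.62 to 2.10, and 0.88 under print-tip loess). gas1 (SPAC19B12.02c), a glucanosyltransferase of the cell wall, was at 0.91 and -0.41 in sim3-205 and at -0.999 and -1.03 in sim3-143. ags1, the alpha-glucan synthase, was at 0.96 and -0.18 in sim3-205 and at -0.42 and -1.10 in sim3-143. For both genes the alleles did not overlap, but the sim3-205 arrays lay on either side of wild-type. gas1 differed by 1.26 (interval 0.41 to 2.12) and ags1, a grid 9 gene, by 1.15 (interval 0.59 to 1.70). Under print-tip loess they differed by 0.93 and 0.56, and both missed the rule.

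Transport genes for zinc and calcium kept most of their differences under print-tip loess. zhf1 (SPAC23C11.14), a zinc transporter of the endoplasmic reticulum, was at 0.54 and 0.52 in sim3-205 and at -0.88 and -0.52 in sim3-143. The difference was 1.23 (interval 0.70 to 1.77), and 1.13 under print-tip loess. vcx1 (SPCC1795.02c), a vacuolar calcium-proton exchanger, was at 0.70 and 0.01 in sim3-205 and at -0.60 and -1.09 in sim3-143. Its difference was 1.20 (interval 0.69 to 1.70), and 1.16 under print-tip loess. Both genes were above wild-type in sim3-205 and below it in sim3-143 on every array. acl1 (SPBC1703.07), a subunit of ATP citrate lyase, which makes cytosolic acetyl-CoA, was at 0.45 and -0.50 in sim3-205 and at -0.99 and -1.39 in sim3-143 (difference 1.17, interval 0.59 to 1.74).

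Among purine genes, 2 were past the rule. ade6, which encodes an enzyme of the purine pathway and is widely used as a colour marker, was at 1.16 and 0.75 in sim3-205 and at -0.05 and -0.40 in sim3-143. The orientations agreed closely, at 1.21 and 1.15, for a difference of 1.18 (interval 0.68 to 1.67). ade8, the adenylosuccinate lyase, was at 0.12 on both arrays of sim3-205 and at -1.21 and -0.90 in sim3-143, for a difference of 1.17 (interval 0.65 to 1.69). The ade6 ratio was farther from wild-type in sim3-205 and the ade8 ratio in sim3-143. Both are in grid 9, and under print-tip loess ade6 was at 0.65 and missed the rule while ade8 was at 0.79 and met it. Of the 9 purine biosynthesis genes tested, a list chosen after these values were seen, only these 2 were past the rule, beside 1.43% of all genes. The other 7 ran from -0.44 (ade10) to 0.46 (ade4), and the list's median was 0.22. Strains of this study carry ade6 alleles and reporters. Which strains gave the RNA is not given in the sources used here, so genotype and allele of sim3 cannot be told apart for ade6. Of the 8 genes tested in the list of auxotrophic and silencing markers, ade6 and act1 were past the rule, both higher, beside 1.43% of all genes. arg3, the marker of central core silencing, differed by 0.04 and ura4 by -0.05. The arg3 probe was dim, with a mean log2 intensity of 8.64 against a median of 10.9 over all genes. Strains of this study also carry arg3 and ura4 alleles and reporters, so nothing about silencing is read from these values.

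The locus next to ade8, med7, a Mediator subunit, was also past the rule, at 1.10. These were the only adjacent genes among the 63. A run of neighbouring loci on chromosome II named SPBPB10D8, a list chosen after its values were seen, held 3 more. Of its 7 tested loci, SPBPB10D8.01, SPBPB10D8.04c and SPBPB10D8.07c were past the rule (1.43% of all genes were) and 0 were lower. The median of the 7, SPBPB10D8.01 included, was 0.75. Whether these loci share sequence was not examined, so their probes may not be separate measurements. SPBPB10D8.04c was at 0.49 and 0.43 in sim3-205 and at -1.20 and -0.53 in sim3-143 (difference 1.33, interval 0.70 to 1.95, and 1.38 under print-tip loess). SPBPB10D8.07c was at -0.08 and 0.49 in sim3-205 and at -0.68 and -0.42 in sim3-143 (difference 0.75). SPBPB10D8.01 met the rule only formally. It is a dim probe, with mutant intensities of 119 and 103 on sim3-205 replicate 1, where the median Cy3 background was 112.5, so it was not above background there and has no measured difference with the mutant in Cy3. With the mutant in Cy5 it was at 1.61 in sim3-205 and -0.51 in sim3-143. Among the chromosome-end genes, the 20 outermost at each end, 1 of 78 was past the rule, beside 1.43% of all genes that were higher. It was ftm4 (SPAC750.05c), at 1.57 and 1.20 in sim3-205 and 0.24 and 0.07 in sim3-143. It lies in grid 9, and its difference of 1.23 was 0.62 under print-tip loess, where it missed the rule.

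**Figure D3:**
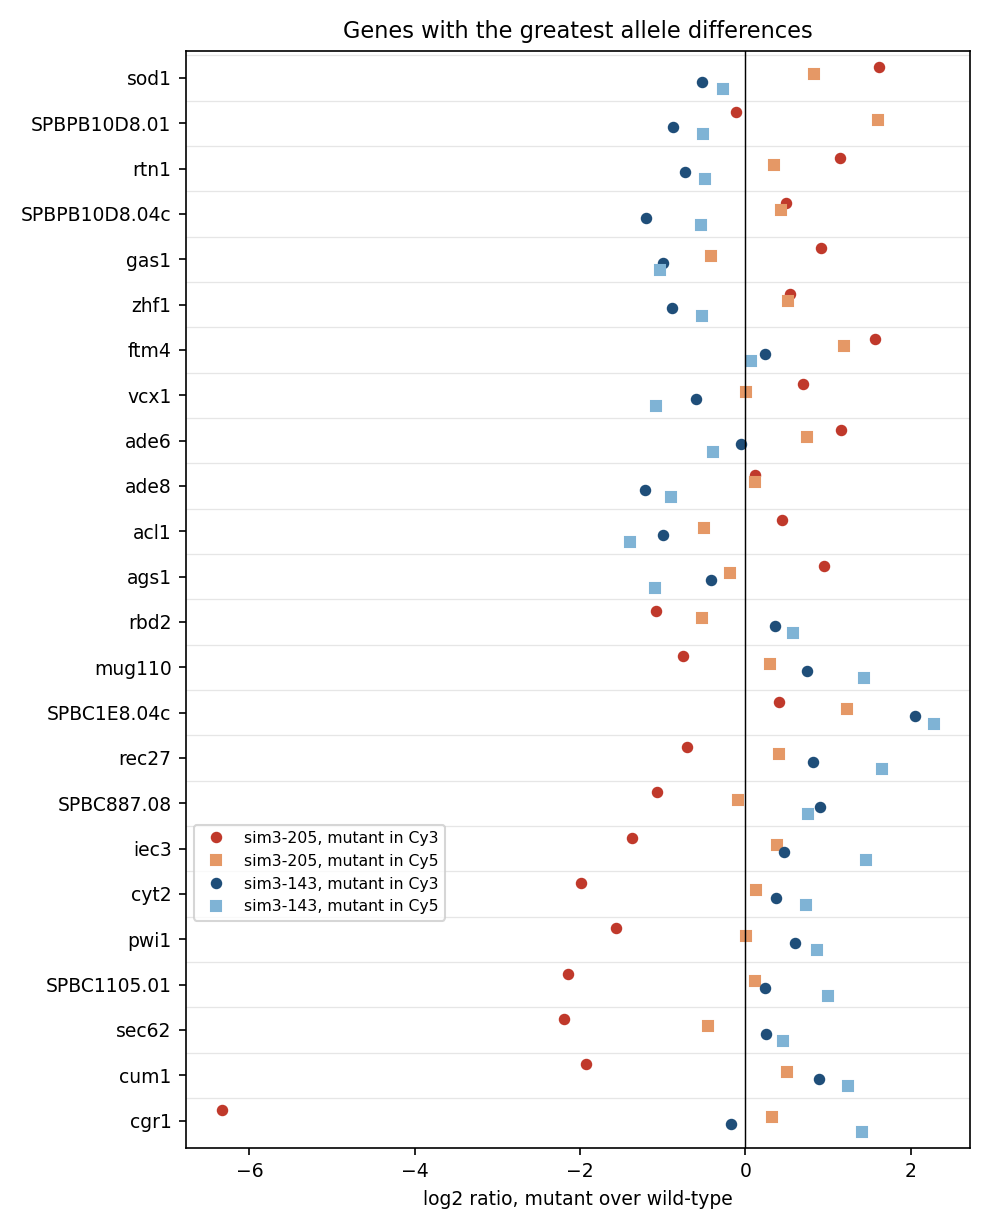
Log2 ratio of mutant over wild-type on each array for the 12 genes with the highest and the 12 with the lowest mean allele difference, among those past 1.5-fold in both orientations with all 4 single-spot differences in 1 direction. In each row the sim3-205 arrays are drawn above the sim3-143 arrays, and sim3-205 replicate 1 lies farthest left in the lower 12 rows. The points of cgr1 and SPBPB10D8.01 on that array come from mutant readings not above background.

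In most of the 12 genes with the greatest differences downward, sim3-205 replicate 1 was the lowest array by a wide margin. cgr1 (SPAC1556.05c), known from budding yeast as a ribosome assembly gene, had mutant intensities of 114 and 107 on that array, where the median Cy3 background was 112.5, against wild-type intensities of 10419.5 and 8956. It was thus not above background there, while on the other 3 arrays its mutant intensities lay between 8259 and 19200. With the mutant in Cy5 it was at 0.32 in sim3-205 and 1.42 in sim3-143, a difference of -1.09. The authors' deposited ratios, placed by written name on sim3-205 replicate 1 and sim3-143 replicate 2, gave 1.28 for its mean difference, the opposite direction. cum1 (SPAC4G8.01c) was at -1.93 and 0.51 in sim3-205 and at 0.89 and 1.25 in sim3-143. cyt2, a haem lyase of mitochondria, was at -1.99 and 0.14 in sim3-205 and at 0.37 and 0.73 in sim3-143. pwi1, whose synonym srm160 names a splicing factor, was at -1.57 and 0.01 in sim3-205 and at 0.60 and 0.87 in sim3-143. SPBC1105.01 was at -2.15 and 0.12 in sim3-205 and at 0.24 and 1.005 in sim3-143. In these 4 genes the sim3-205 arrays lay on either side of wild-type. The mean differences were -1.78 (cum1), -1.48 (cyt2), -1.51 (pwi1) and -1.64 (SPBC1105.01). With the mutant in Cy5, which leaves out sim3-205 replicate 1, cum1 differed by -0.74, cyt2 by -0.60, pwi1 by -0.86 and SPBC1105.01 by -0.89. Under print-tip loess cyt2 was at -0.56 in that orientation and missed the rule.

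sec62, a subunit of the protein translocon of the endoplasmic reticulum, was at -2.20 and -0.45 in sim3-205 and at 0.24 and 0.46 in sim3-143 (difference -1.68, interval -2.64 to -0.71). One of its spots on sim3-205 replicate 1 read 147 in the mutant channel and the other 2546. With spots that carry any code of the image software left out, which removes the first, the difference was -0.81. SPBC887.08 was at -1.07 and -0.09 in sim3-205 and at 0.91 and 0.76 in sim3-143 (difference -1.41, interval -2.20 to -0.63). rbd2 (SPCC790.03), a rhomboid protease, was at -1.09 and -0.53 in sim3-205 and at 0.36 and 0.58 in sim3-143 (difference -1.28, interval -1.80 to -0.75, and -1.05 under print-tip loess). These 3 were below wild-type in sim3-205 and above it in sim3-143 on every array. iec3 (SPCC1259.04), a subunit of the Ino80 chromatin remodeller, was at -1.37 and 0.39 in sim3-205 and at 0.46 and 1.46 in sim3-143, so that the higher sim3-205 array and the lower sim3-143 array lay side by side (difference -1.83 with the mutant in Cy3 and -1.07 with the mutant in Cy5).

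Other lower genes had nearly equal differences in both orientations. fio1, the multicopper oxidase of iron uptake, was at -0.84 and 0.01 in sim3-205 and at 0.34 and 1.16 in sim3-143, with differences of -1.18 and -1.16 (mean -1.17, interval -1.66 to -0.68). fhn1, a plasma membrane protein of eisosomes, was at -0.70 and -0.67 in sim3-205 and at 0.30 and 0.45 in sim3-143 (mean difference -1.06, interval -1.56 to -0.56). It was 1 of 17 tested genes of cell-end polarity and eisosomes, whose median difference was -0.23, with 12 of 17 below 0. Its neighbour in that list, pil1, the core component of eisosomes, was at -1.25 and -0.55 in the 2 orientations and just missed the rule. fio1 was the only one of 15 iron and copper uptake genes past the rule, beside 1.75% of all genes that were lower.

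Some of the lower genes were first named for meiosis. Of 95 tested genes called mug, meu or rec, a list chosen after these values were seen, 5 were lower and 1 was higher by the rule, beside 1.75% and 1.43% of all genes. The list's median was -0.10, and under print-tip loess 4 were lower and 0 higher. rec27 (SPBC577.05c), a linear element protein of meiotic recombination, was at -0.70 and 0.41 in sim3-205 and at 0.82 and 1.65 in sim3-143 (difference -1.38, interval -1.90 to -0.86). mug110 (SPBC2G2.10c) was at -0.76 and 0.30 in sim3-205 and at 0.74 and 1.44 in sim3-143 (difference -1.32, interval -1.85 to -0.79). The others were mug4 (-0.93), meu13 (-0.83), a recombination factor, and mug20 (-0.88), which missed the rule under print-tip loess. Each of these 5 was above wild-type on both sim3-143 arrays, while mug51 (0.62) was the higher gene. Among 20 genes of mating type and mating response 0 were past the rule, with a median of -0.12 and mei3, the inducer of meiosis, lowest at -0.66.

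Tf2 retrotransposons were above wild-type in both alleles on most probes, and 7 of 8 probes were lower in sim3-205 than in sim3-143. Tf2 is the long terminal repeat retrotransposon of the fission yeast genome, and its copies share nearly all of their sequence, so the probes may not be separate measurements. Of 8 tested probes, 3 were lower in sim3-205 by the rule (1.75% of all genes were) and 1 was higher (1.43% of all genes), and 2 more probes lay in the grids left out. tf2-2 was at 0.66 and 1.06 in sim3-205 and at 1.78 and 2.15 in sim3-143, with differences of -1.12 and -1.09 (mean -1.10, interval -1.60 to -0.61). tf2-5 was at 0.84 and 1.26 in sim3-205 and at 1.93 and 2.23 in sim3-143. tf2-10 was at 0.85 and 1.26 in sim3-205 and at 1.85 and 2.19 in sim3-143. In these 3 the alleles did not overlap and all arrays were above wild-type. The median ratio of the 8 probes was 0.96 in sim3-205 and 1.74 in sim3-143, and the median difference was -0.73.

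The probe tf2-1 went the other way, at 0.48 and 0.44 in sim3-205 and at -0.23 and -0.69 in sim3-143 (difference 0.92). It lies in grid 13, its difference under print-tip loess was 0.58 and it missed the rule there, and it was the only Tf2 probe of the 8 below wild-type in sim3-143. Without it the median difference of the remaining 7 was -0.87. Print-tip loess gave a median of -0.85 over all 8, with 5 lower and 0 higher by the rule. Median centring gave -0.53, and leaving out an array, without regard to dye, gave -0.98 to -0.48. The authors' deposited ratios, placed by written name on 1 array of each allele, held 1 of the 8 probes, at -0.35. Outside the list, the probe SPAC19D5.09c, which the gene table gives as Tf2-8 and which was chosen after its values were seen, was at 0.49 and 1.15 in sim3-205 and at 1.79 and 2.11 in sim3-143 (difference -1.13, interval -1.65 to -0.60). SPBC1E8.04c, a printed name that differs from the locus of Tf2-10 in its last letter alone and has no match of its own in the gene table, was at 0.41 and 1.23 in sim3-205 and at 2.055 and 2.28 in sim3-143 (difference -1.35, interval -1.94 to -0.76).

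**Figure D4:**
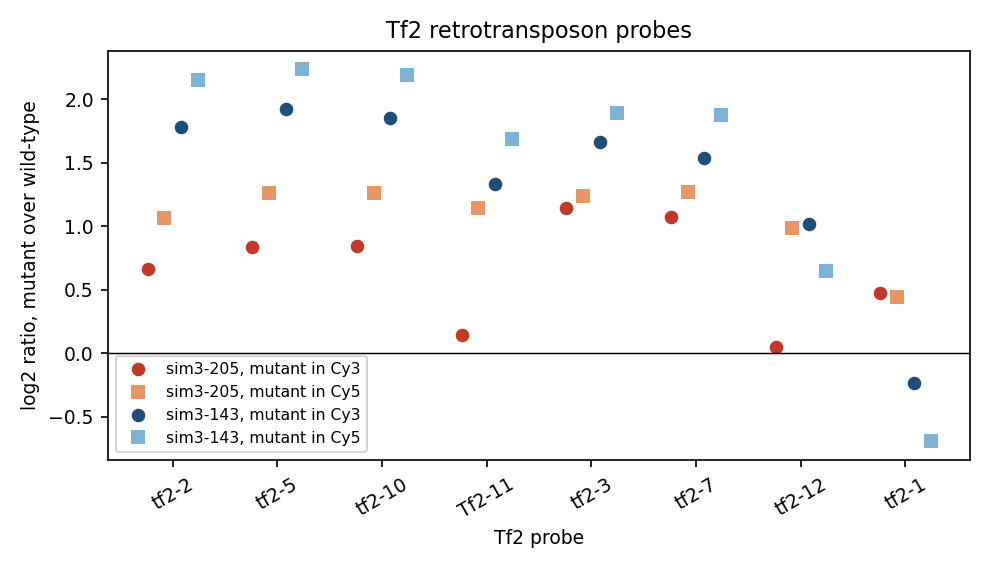
Log2 ratio of mutant over wild-type on each array for the 8 Tf2 probes tested, ordered by mean allele difference, with the sim3-205 arrays left of the sim3-143 arrays in each column. For tf2-2, tf2-5 and tf2-10 both sim3-143 arrays lie above both sim3-205 arrays, and tf2-1 shows the reverse order.

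Stress and heat-shock genes had list medians near 0, with single members past the rule. hsp104 (SPBC16D10.08c), the disaggregase that rescues aggregated proteins, was above wild-type on all arrays, at 2.78 and 1.62 in sim3-205 and at 1.65 and 0.69 in sim3-143. The alleles overlapped when orientations were set aside, but within each orientation sim3-205 was higher, by 1.13 and 0.93 (mean 1.03, interval 0.53 to 1.53, and 1.15 under print-tip loess). It was the only one of 17 heat-shock genes past the rule, beside 1.43% of all genes that were higher. The median of the list was -0.03. Others of the list parted by orientation, such as hsp10, the mitochondrial co-chaperonin, at 1.88 with the mutant in Cy3 and 0.36 with the mutant in Cy5. Of 33 stress response effectors, 3 were higher (sod1, apt1 and ntp1) and 1 was lower by the rule, beside 1.43% and 1.75% of all genes, with a median of 0.06. ntp1 (SPBC660.07), the neutral trehalase, was at 1.38 and 0.24 in sim3-205 and at 0.45 and -0.73 in sim3-143. apt1 (SPAC23A1.03), an adenine phosphoribosyltransferase of purine salvage, was at 0.67 and 0.82 in sim3-205 and at -0.05 and -0.57 in sim3-143. Both lie in grid 13 and missed the rule under print-tip loess, at 0.59 and 0.67. The lower gene was cta3, a stress-induced cation ATPase, at 0.38 and 0.57 in sim3-205 and at 1.38 and 1.51 in sim3-143 (difference -0.97, interval -1.47 to -0.48).

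Each of the cell cycle and growth lists below held 1 or 2 genes past the rule. Over all genes 1.43% were higher and 1.75% lower, and nothing is read from the counts. In the G1/S list, rep2, an activator subunit of the MBF transcription complex, and suc22, the small subunit of ribonucleotide reductase, were 2 of 18 past the rule, both higher (1.43% of all genes were). suc22 was at 0.9998 and 0.61 in sim3-205 and at -0.14 and 0.02 in sim3-143 (difference 0.86). rep2 was at 0.98 and -0.30 in sim3-205 and at -0.18 and -1.18 in sim3-143 (difference 1.02). Under print-tip loess both missed the rule and the median of the list was -0.01, against 0.16 in the main values. mid2, of cell separation, was 1 of 19 mitosis and cell separation genes past the rule (0.73). Of 40 nucleolar genes nop9, of grid 9, was higher (0.65, and 0.25 under print-tip loess) and nop4 lower (-0.91), and of 113 cytosolic ribosomal protein genes 1, rps3002, was lower (-0.85). These 4 missed the rule under print-tip loess. The lowest ribosomal protein gene, rps1502, had a mean difference of -3.41 but was at -7.38 and -0.02 in sim3-205 and at -0.40 and -0.17 in sim3-143, so that 1 array held it. Its mutant readings on that array were 133 and 122, close to the median Cy3 background of 112.5. act1, the actin gene that often serves as a control, was at 0.55 and -0.19 in sim3-205 and at -0.52 and -0.79 in sim3-143 (difference 0.84), and met the rule under print-tip loess too.

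No gene was past the rule in the lists of heterochromatin and RNAi (22 tested), spindle checkpoint and Aurora kinase (13), glycolysis and fermentation (11), hexose transporters (11) or the phosphate and thiamine regulon (11). Over all genes 1.43% were higher and 1.75% lower by the rule. Lists this small may hold none at such shares, so nothing is read from their having none. tas3, an RNAi factor, was the lowest of the first list at -1.27, and swi6, the heterochromatin protein of the HP1 family, the highest at 0.40. Besides the rdp1 probe SPAC6F12.09 (-0.12), that list holds a probe printed as rdp1 (-0.19). The paper describes the gene printed as rdp1 as a zinc finger regulator of rhp51, so it may not be an RNAi gene. The other lists ran from -0.40 (dis1) to 0.33 (mad1) for the checkpoint, from -1.11 (ght1) to 0.34 (agl1) for hexose transporters, and from -0.57 (nmt1) to 0.40 (pho4) for phosphate and thiamine. The glycolysis list reached 0.59 (hxk2), and its lowest value was that of tpi1, triose phosphate isomerase, which was saturated in both dyes on both sim3-143 arrays, so no difference is given. With the mutant in Cy5, tas3 differed by -0.23 and ght1 by -0.17, and sim3-205 replicate 1 was the lowest array in both. hxk2, of grid 9, was at -0.23 under print-tip loess, so its direction turned. Across all lists the medians lay between -0.73 for Tf2 and 0.75 for the SPBPB10D8 loci.

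**Figure D5:**
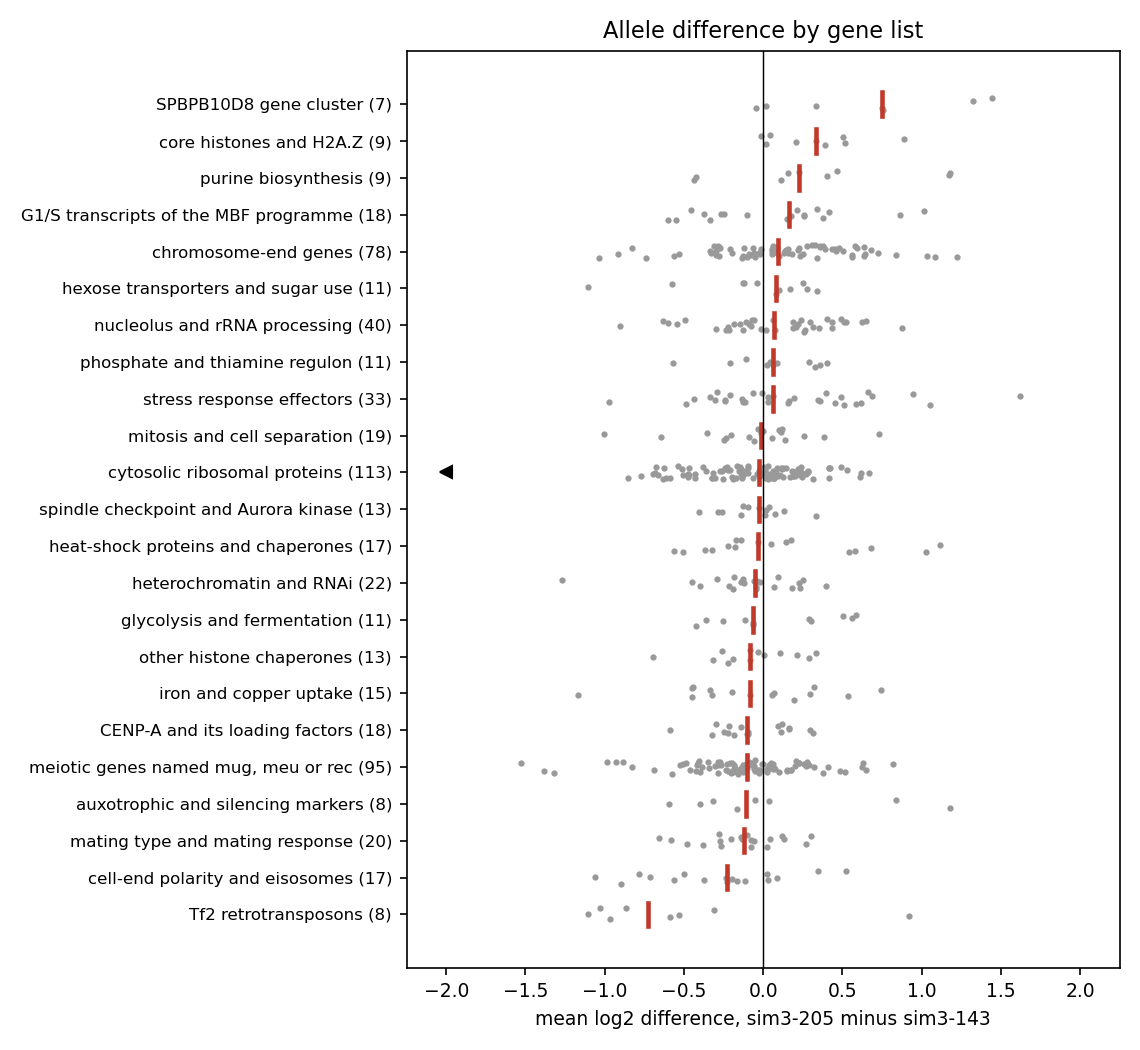
Mean log2 difference of sim3-205 minus sim3-143 for each tested member (grey points) and the median (red bar) of each gene list, with the number of members tested in brackets. One ribosomal protein gene, rps1502, lies beyond the axis at -3.41 and is drawn as a black triangle pointing left. Medians run from -0.73 for Tf2 to 0.75 for the SPBPB10D8 loci.

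In part of these genes the alleles lay on opposite sides of wild-type. Of the 63 higher genes, 27 were above wild-type on both sim3-205 arrays and below it on both sim3-143 arrays, and of the 77 lower genes 27 showed the reverse. Over all genes 5.82% and 5.51% did, but genes chosen for a large difference between the alleles lie on opposite sides more readily, so nothing is read from these counts. By the mean of an allele's arrays, 16 of the 63 were past 1.5-fold upward in sim3-205, 25 were past 1.5-fold downward in sim3-143, 2 were both and 24 were neither. Of the 77, 13 were past 1.5-fold downward in sim3-205, 46 upward in sim3-143, 4 were both and 22 were neither. The median ratio of the 63 was 0.37 in sim3-205 and -0.49 in sim3-143, and that of the 77 was -0.30 in sim3-205 and 0.64 in sim3-143.

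Each ratio holds a mutant and a wild-type reading, and each was compared between the alleles after the channels were brought to a common scale. The mutant readings differed in the direction of the ratio in both orientations for 54 of the 63 higher and 56 of the 77 lower genes, and by more than 1.5-fold in both for 22 and 20. For sod1 the mutant readings differed by 1.98 and 0.98 and the wild-type readings by -0.16 and -0.12. For ade6 the mutant readings differed by 1.53 and 1.11 and the wild-type readings by 0.32 and -0.03. For rec27 the mutant readings differed by -1.73 and -1.23 and the wild-type readings by -0.20 and 0.00, and tf2-2, at -0.82 and -0.95 in the mutant readings, and fhn1, at -0.82 and -0.95, also differed mainly in the mutant channel. In others the wild-type readings held much of the difference. For cta3 the mutant readings differed by -0.08 and 0.17 and the wild-type readings by 0.92 and 1.12, and for zhf1 the mutant readings differed by 0.40 and 0.63 and the wild-type readings by -1.03 and -0.41. In some genes the mutant readings went against the ratio with the mutant in Cy5, such as SPBPB10D8.04c (-1.64), rbd2 (0.61) and iec3 (0.46). Their wild-type readings in that orientation differed by -2.61, 1.71 and 1.53. The wild-type readings differed against the ratio by more than 1.5-fold in both orientations for 3 of the 63 and 6 of the 77 genes. With the mutant in Cy5, where the alleles lay on slides of different codes, mutant and wild-type differences had a Pearson correlation of 0.82 across genes, against 0.31 with the mutant in Cy3, where both slides had 1 code.

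Neighbouring genes were counted in both groups, with no count for other genes to set beside them, so nothing is read from the numbers. Among the 77 lower genes there were 5 adjacent pairs in the gene order, against the single pair of the 63 higher genes. They were SPBC713.09 with tim16, mug20 with ccp1, oxa102 with ppb1, SPBC887.08 with sog2, and rpa12, an RNA polymerase I subunit, with iec3. Genes past the rule were brighter than the rest, with a median log2 intensity of 11.7 for the higher and 12.0 for the lower genes, against 10.9 over all genes. The offset of 50 in background correction shrinks log2 ratios of dim spots more than of bright ones, so nothing is read from this.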

How the data were processed

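The authors deposited scanner files with unnormalized median intensity per spot and background in each dye, for 2 spots per probe, and tables of log2 ratios made in GeneSpring with Lowess normalization (medians -0.0634 and 0.0086 for sim3-205, 0.0029 and 0.0718 for sim3-143). The direction and scale of the deposited log2 ratios were found against the scanner values, and their background treatment is not stated. By position they correlated with the scanner ratios at only 0.01 on sim3-143 replicate 2 and 0.05 on sim3-205 replicate 1. By the name written on the array the correlations were 0.73 and 0.71. On these arrays each value was therefore placed on the spot with that written name. It then took the gene name of the printed position, which is mostly not the deposited label. Median intensity per array and dye was between 953 and 2369.5, and background between 101 and 209.5. The number of arrays limits the precision.

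Each spot took the name that sim3-143 replicate 1 gives at its position, because the names written on sim3-143 replicate 2 and sim3-205 replicate 1 run alphabetically and not with the printed spots (0.521% equal). Of 4868 names, 4652 (95.6%) matched the RefSeq gene table of ASM294v3, used for names and gene order only. Background correction was by normexp with an offset of 50 and normalization by a loess curve of span 0.3 for each spot file (limma 3.58.1, R 4.3.3), ratios were turned to mutant over wild-type, and spots and probes of 1 name were averaged. Control spots, spots coded 1 or 4 and 73 spots with Cy3 at 0 were left out. lmFit and eBayes used allele and dye orientation as coefficients. Channel differences used Aquantile scaling. The fit was tested on simulated data.

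Named genes are the 12 highest and 12 lowest past 1.5-fold with all 4 single-spot differences in 1 direction, sim3, cnp1 and hhy1, and, in each list, members past the rule (at most 5 each way) or else the extremes. Members and lists were chosen with earlier results of these data known. Alternatives were other background corrections and normalizations, the deposited log2 ratios, filters on dim or coded spots, other grids, each array left out, other calling rules and, chosen after seeing the data, both loess settings together, grids 9 and 13 left out, Tf2 without tf2-1 and centred deposited ratios. Counts and plots were made in Python 3.11.15 with pandas 2.3.3, numpy 2.4.6 and matplotlib 3.10.9.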

Additional observations from a re-analysis of the deposited data

Results flagged for a closer look

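The alleles lay on opposite sides of wild-type on all 4 arrays for 10 of the 24 genes with the greatest differences. Above wild-type in both sim3-205 arrays and below it in both sim3-143 arrays were sod1 (difference 1.62), rtn1 (1.36), SPBPB10D8.04c (1.33), zhf1 (1.23), vcx1 (1.20), ade6 (1.18) and ade8 (1.17). Below wild-type in both sim3-205 arrays and above it in both sim3-143 arrays were sec62 (-1.68), SPBC887.08 (-1.41) and rbd2 (-1.28). Over all genes 5.82% showed the first pattern and 5.51% the second. In limma's test of the difference each of the 10 had an adjusted p of 0.441, so none was called. These genes were chosen for the size of their differences, so nothing is read from their number. Under print-tip loess sod1 was at 0.75 and ade6 at 0.65, and both missed the rule. With coded spots left out sec62 was at -0.81.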

How the results depend on the processing

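limma called 0 genes under every alternative run except without sim3-205 replicate 1 (11) and without sim3-205 replicate 2 (98), so that leaving out arrays, which also drops the dye block, gave 0 to 98. Against 140 genes past 1.5-fold in both orientations there were 222 with plain background subtraction, 270 with median centring, 232 with all 32 grids kept, 64 with the deposited log2 ratios, 55 with these centred, 475 by the mean of the orientations, 65 under loess and print-tip loess together and 499 to 971 without an array, when 1 orientation decides. Against 16 past 2-fold there were 37 with median centring, 33 with all grids, 7 with the deposited ratios, 76 by the mean and 91 to 266 without an array. Of 67 named genes, 58 kept their direction under every alternative that gave a value. The direction turned for hxk2 with print-tip loess (-0.23), agl1 (-0.325), rep1 (-1.32), hta2 (0.14) and hhy1 (0.0727) with median centring, hta2 with print-tip loess (0.0238) and cgr1 with the deposited ratios (1.28). Without an array the alleles are compared across dye orientations, and the range crossed 0 for cnp3 (-0.0279 to 0.65), hta2 (-0.33 to 0.30), hhy1 (-0.52 to 0.35), cnp1 (-0.29 to 0.10) and mis12 (-1.32 to 0.14), although within orientation cnp3 (0.55 and 0.08) and mis12 (-0.95 and -0.23) kept theirs. The cause of the other changes was not tested. sim3 stayed between -0.37 and -0.06. The main fit pairs the arrays by dye orientation, and without that block, on all 4 arrays, 0 genes were called. Probes near background, and 2 arrays per allele, limit what can be shown.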
